A study of Mus musculus with 6 samples.

Results

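Complement is a cascade of plasma proteins that marks microbes, immune complexes and dying cells for removal. In the classical pathway the recognition protein C1q, built from A, B and C chains, binds a target and activates the proteases C1r and C1s. These cleave C4 and C2 to form a convertase that splits C3, the point at which all routes meet. Factor D starts the amplifying alternative pathway, and the C1 inhibitor (gene Serping1) shuts C1r and C1s down. The liver makes most circulating components. Within tissues, macrophages are the usual source of C1q, fibroblasts of C1r, C1s, C3 and the C1 inhibitor, and adipocytes of factor D.

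The 9 genes described here were taken by symbol from the 78409 genes of the deposited table: C1qa, C1qb and C1qc, C1ra and C1s1, C4b, C3, Cfd (factor D) and Serping1. All 9 passed the filter on low values and were tested. They were measured in 3 hearts of 11-month-old mice labelled Ybx1 cardiomyocyte-specific KO (Ybx1cmKO) and in 3 hearts of littermate controls. The labels used here name no Cre driver, no alleles of the controls and no region of the heart. The comparison asks which transcripts of heart tissue differ when cardiomyocytes lack Ybx1, an RNA- and DNA-binding Y-box protein.

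Library totals ran from 12270796 to 15141525 counts. Ybx1 itself, in CPM (a gene's share of its library's counts, scaled by TMM), was at 849, 810.2 and 895 in controls 1, 2 and 3 and at 203, 171 and 109.7 in knockouts 1, 2 and 3, so each library matched its label. Knockout heart 3 stood apart in its make-up: mitochondrial rRNA took 10.7% of its counts and 20.5% to 26.3% of those of the other hearts, and the nuclear RNA Malat1 was at 668 deposited CPM against 3317 to 7923 CPM. The values of the 9 genes below are also given without that heart where leaving it out moved them by over 1.5 times. Cardiomyocyte markers were abundant in every heart, with Myl2 at 3463 CPM or more. Of the 6 listed, 4 had a log2 fold change below 0 (median -0.21). It was above 0 for Tnni3 (0.05) and Actc1 (0.32, but -0.049 without knockout heart 3). In Myh6 and Ryr2 every knockout heart lay below every control heart, as in 5.84% of all genes. Myh6, the main myosin heavy chain of the adult mouse heart, averaged 5473 CPM in controls and 3521 CPM in knockouts (log2 fold change -0.64, edgeR unadjusted p = 0.0302, adjusted p = 0.694). The part of this difference in the complement values was not tested. In RNA from whole tissue, fewer cells of a type and less RNA per cell cannot be told apart.

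C1qb, C1qc and C1qa lie next to each other in that order on chromosome 4. The 250 bases before the RefSeq start of C1qb and C1qc (build GRCm38.p6, minus strand) are shown. C1qa had no promoter entry and was not searched. Capitals mark the letters GAGGAA or their reverse complement, the core bound by PU.1, a transcription factor of macrophages.
C1qb, chr4:136886201-136886450: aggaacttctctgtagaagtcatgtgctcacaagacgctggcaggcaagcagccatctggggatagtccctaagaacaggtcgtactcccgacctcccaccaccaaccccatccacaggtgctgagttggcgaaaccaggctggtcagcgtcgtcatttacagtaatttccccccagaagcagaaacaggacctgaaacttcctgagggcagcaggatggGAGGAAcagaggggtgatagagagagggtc
C1qc, chr4:136892915-136893164: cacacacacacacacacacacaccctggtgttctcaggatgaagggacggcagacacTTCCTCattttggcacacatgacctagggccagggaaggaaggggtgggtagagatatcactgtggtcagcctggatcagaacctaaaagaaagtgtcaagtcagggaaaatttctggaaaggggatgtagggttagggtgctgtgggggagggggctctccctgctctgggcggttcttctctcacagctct
Each holds 1 match, beginning 30 bases before the start in C1qb and 193 bases before it in C1qc. These letters occur on either strand in 28.3% of 32851 promoter windows of 300 bases, which run from 250 bases before to 50 after a start. The C3 promoter (minus strand) is shown for a match to TTGCGNAA, a C/EBP type of site that only 0.798% of those windows hold, beginning 45 bases before the start (in capitals).
C3, chr17:57228137-57228386: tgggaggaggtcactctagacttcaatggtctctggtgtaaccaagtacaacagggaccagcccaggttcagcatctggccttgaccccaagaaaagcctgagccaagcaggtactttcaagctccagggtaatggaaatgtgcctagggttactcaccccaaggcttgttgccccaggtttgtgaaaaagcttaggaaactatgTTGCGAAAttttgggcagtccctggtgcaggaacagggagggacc
Of the 6 members with a promoter entry (C1qb, C1qc, C1ra, C1s1, C3 and Cfd), none but C3 held TTGCGNAA, and C1ra also held GAGGAA, beginning 44 bases after the start. TGCTGA, a partial MAF site, was matched in C1qb and C3 (19.5% of all windows), and TTCNNNGAA, the gamma-activated site, in C1ra (8.30% of windows). Both strands were searched, the marked sites overlap no match to another of these motifs, and a match shows letters, not binding.

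No complement gene passed the test between knockout and control hearts. The test was edgeR's quasi-likelihood test with Benjamini-Hochberg adjustment over all 13717 tested genes at a threshold of 0.05. None of all tested genes passed it (0.0%), while 705 had an unadjusted p under 0.05, DESeq2 called 15 genes, no complement gene among them, and limma called 0. Ybx1 itself ranked first of all genes, with a log2 fold change of -2.40 and an edgeR adjusted p of 0.148, so the deleted gene did not pass either. With edgeR the lowest adjusted p of the 9 was 0.694. All 9 fitted log2 fold changes, knockout relative to control, were above 0, from 0.14 to 0.76 with a median of 0.33. Over all tested genes the median was 0.01 and 51.1% lay above 0 (65.6% with limma-trend on the deposited CPM plus 0.5, which carry no TMM factor). Without knockout heart 3 the median of the 9 was 0.21 and the count above 0 was 8 of 9, where 48.5% of all genes lay above 0, and in C1qa, C4b and Serping1 both remaining knockout hearts lay above all controls, as in 9.11% of all genes. Only Serping1 had an unadjusted p under 0.05 with all hearts, and 2.69% of all genes had one in that direction. In C1qa and Serping1 all knockout hearts lay above all control hearts, as in 6.28% of all genes. For C1qa, C1qb, C1ra, C1s1 and C3, 5 genes, the 95% interval lay within 2-fold either way.

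**Figure D1:**
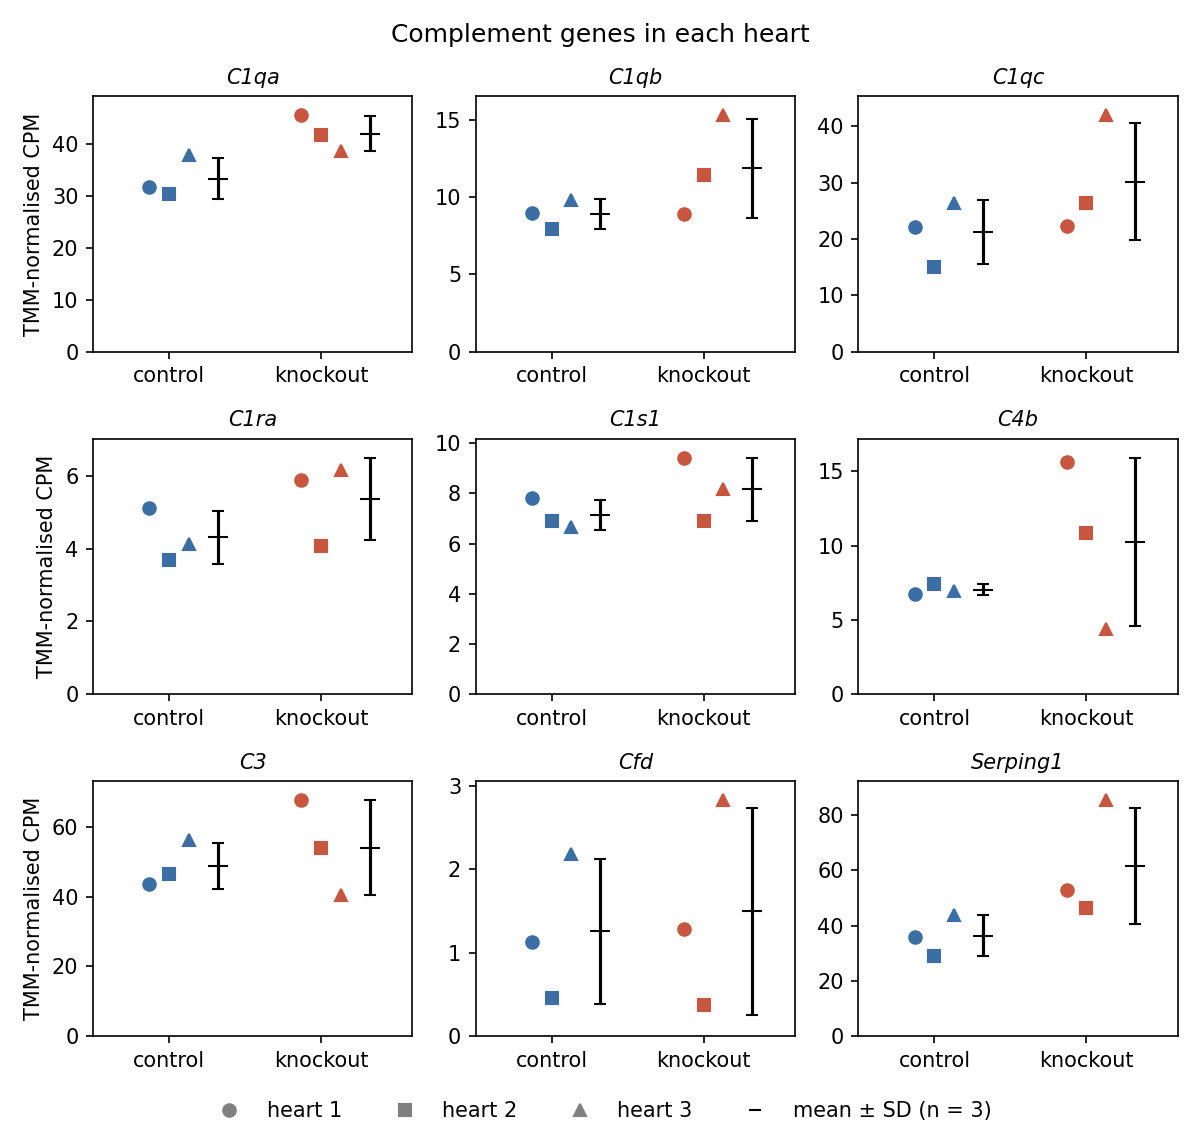
TMM-normalised CPM of each complement gene (vertical axes, from 0) in 3 control and 3 knockout hearts, with symbols for the heart number and a bar for the group mean ± SD. The groups do not overlap for C1qa and Serping1, and knockout heart 3 is the highest heart for C1qb, C1qc, C1ra, Cfd and Serping1 and the lowest for C4b and C3.

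C1qa, which encodes the A chain of C1q, was at 31.8, 30.3 and 37.8 CPM in control hearts and 45.5, 41.7 and 38.7 CPM in knockout hearts. The groups did not overlap, but the lowest knockout heart lay close to the highest control heart. The means were 33.3 ± 3.95 and 41.9 ± 3.39 CPM (SD, n = 3 each), a log2 fold change of 0.33 (SE 0.18, 95% confidence interval -0.07 to 0.73; edgeR adjusted p = 0.694). It ranged from 0.26 to 0.43 as each heart was left out.

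C1qb, the B chain, was at 8.95, 7.92 and 9.85 CPM in control and 8.94, 11.4 and 15.3 CPM in knockout hearts. Knockout heart 1 lay inside the control range and the other knockout hearts above it. The log2 fold change was 0.42 (SE 0.23, interval -0.12 to 0.95; edgeR adjusted p = 0.694), and 0.19 without knockout heart 3. C1qc, the C chain, was at 22.2, 15.1 and 26.4 CPM in control and 22.3, 26.3 and 42.0 CPM in knockout hearts. Here 2 knockout hearts lay inside the control range and only knockout heart 3 above it. The log2 fold change was 0.51 (SE 0.29, interval -0.16 to 1.17; edgeR adjusted p = 0.694), 0.19 without knockout heart 3 and 0.30 without control heart 2.

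The C1q molecule holds its A, B and C chains in equal number, but transcript shares are not a measure of protein. The shares here are of CPM not scaled by exon length, which is 1040, 1088 and 1931 bases for C1qa, C1qb and C1qc. C1qa made up 50.5%, 56.8% and 51.03% of the summed CPM of the 3 chain transcripts in controls and 59.3%, 52.5% and 40.3% in knockouts. C1qc took 28.3% to 35.7% in controls and 29.1%, 33.1% and 43.7% in knockouts. Knockout heart 3 was thus the only heart with more C1qc than C1qa in CPM. Per kilobase of exon the knockout means were 40.3 CPM for C1qa and 15.6 CPM for C1qc. The ratio of C1qc to C1qb ran from 1.91 to 2.68 in control and from 2.30 to 2.74 in knockout hearts. The sum of the chains was 62.9, 53.3 and 74.01 CPM in control and 76.7, 79.4 and 95.9 CPM in knockout hearts.

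Macrophage markers were read beside C1q. The 15 markers on the list summed to between 137 and 156 CPM in control hearts and 154 and 195 CPM in knockout hearts, so the groups overlapped, and none of the 15 was at 0 throughout. Of the 13 tested, 10 had a log2 fold change above 0 (median 0.34) and none passed edgeR's test. Lyz2, the lysozyme of myeloid cells, was at 36.4 and 53.3 CPM as group means, with only knockout heart 3 (81.6 CPM) above the control range, and its log2 fold change was 0.55 with that heart and 0.10 without it. Maf, a transcription factor gene, was at 33.7 and 32.5 CPM. Per 100 CPM of summed macrophage markers the C1q chains came to 37.0 to 47.6 CPM in control and 39.4, 51.4 and 57.7 CPM in knockout hearts. The part of macrophage number in the C1q values was not tested.

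The proteases that C1q activates are encoded by C1ra and C1s1, neighbours on opposite strands of chromosome 6. C1ra was at 5.12, 3.68 and 4.13 CPM in control and 5.89, 4.08 and 6.15 CPM in knockout hearts. Knockout hearts 1 and 3 lay above the control range and knockout heart 2 within it. The log2 fold change was 0.32 (SE 0.25, interval -0.25 to 0.89; edgeR adjusted p = 0.698), and 0.21 without knockout heart 3 or control heart 2. C1s1 was at 7.82, 6.91 and 6.68 CPM in control and 9.42, 6.88 and 8.18 CPM in knockout hearts, with the same knockout hearts above the controls. Its log2 fold change was 0.20 (SE 0.20, interval -0.26 to 0.65; edgeR adjusted p = 0.733), and 0.08 without knockout heart 1. C1ra and C1s1 had the most similar profiles of the 36 pairs of members. After each gene was centred on its own mean of log2(CPM + 0.5), they differed by 0.10 on average over the 6 hearts. The next closest pair was C1qb and C1qc, at 0.14. The ratio of C1s1 to C1ra ran from 1.53 to 1.88 in control and from 1.33 to 1.69 in knockout hearts.

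C4b encodes complement C4, whose larger fragment binds covalently to the target. It was at 6.73, 7.42 and 6.94 CPM in control and 15.6, 10.8 and 4.35 CPM in knockout hearts. Knockout hearts 1 and 2 lay above every control heart and knockout heart 3 below every one. The log2 fold change was 0.54 (SE 0.40, interval -0.36 to 1.44; edgeR adjusted p = 0.695). It was 0.91 without knockout heart 3 (edgeR unadjusted p = 0.00140, adjusted p = 0.753) and 0.09 without knockout heart 1. Without knockout heart 3, the heart in which C4b was lowest, 1.93% of all genes were higher with an edgeR unadjusted p under 0.05. The control SD was 0.349 CPM and the knockout SD 5.65 CPM.

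C4b has a near copy, C4a, and its value is uncertain to that extent. The longest open reading frames of the pair in GENCODE M21 transcripts were identical at 96.2% of 5205 aligned bases, and 35.2% of the 50-base windows of the longest C4b transcript also occur in C4a. The 60-base stretch with the most differences (13, in capitals) is shown because a read from there can be placed in either gene without doubt. It covers bases 2705 to 2764 of the C4b frame and 2696 to 2755 of the C4a frame, counted from the start codon.
C4b: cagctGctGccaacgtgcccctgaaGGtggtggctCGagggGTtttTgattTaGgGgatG
C4a: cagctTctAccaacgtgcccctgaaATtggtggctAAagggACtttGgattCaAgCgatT
C4a held 9.5 to 27.5 counts per library, 8.39% to 13.04% of the C4b count, and was not tested because it was too low. It was at 0.766, 0.967 and 0.727 CPM in control and 1.86, 0.908 and 0.527 CPM in knockout hearts, so it too was highest in knockout heart 1 and lowest in knockout heart 3. C4b had a fractional count in 4 libraries. C1ra shares 48.02% of its windows with C1rb, which held 13.0% to 17.1% of the C1ra count, and C1s1 24.3% with C1s2, which held 2 counts at most.

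C3, the component on which the classical, lectin and alternative pathways converge, was at 43.6, 46.5 and 56.1 CPM in control and 67.6, 53.8 and 40.4 CPM in knockout hearts. Knockout heart 1 lay above the control range, knockout heart 2 within it and knockout heart 3 below it. The log2 fold change was 0.14 (SE 0.23, interval -0.37 to 0.66; edgeR adjusted p = 0.818). It was -0.052 without knockout heart 1 and 0.32 without knockout heart 3. C3 and C4b shared the order of the knockout hearts, and the ratio of C4b to C3 was 0.124 to 0.159 in control and 0.231, 0.201 and 0.108 in knockout hearts.

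Cfd encodes factor D, the protease also called adipsin for its high level in fat. It was at 1.13, 0.461 and 2.18 CPM in control and 1.29, 0.378 and 2.83 CPM in knockout hearts, from 5 to 51 counts per library. The groups overlapped over most of their range. The log2 fold change was 0.25 (SE 0.69, interval -1.33 to 1.82; edgeR adjusted p = 0.903), -0.62 without knockout heart 3 and 0.92 without control heart 3. Adipocyte markers were low in the same hearts: the 8 listed summed to 3.23, 0.921 and 7.01 CPM in control and 5.35, 2.65 and 6.32 CPM in knockout hearts. Of these only Car3 passed the filter, and Adipoq, the defining adipokine, was at 0 in control hearts 1 and 2 and knockout heart 2. The part of fat attached to the heart in the Cfd values was not tested.

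Serping1, the C1 inhibitor, showed the widest separation of the 9 genes. It was at 36.0, 29.1 and 43.8 CPM in control and 53.0, 46.4 and 85.3 CPM in knockout hearts. Every knockout heart lay above every control heart, and knockout heart 3 lay far above the other knockout hearts. The means were 36.3 ± 7.34 and 61.5 ± 20.8 CPM (SD, n = 3 each), a log2 fold change of 0.76 (SE 0.27, interval 0.15 to 1.38). The unadjusted p of edgeR was 0.0210, the adjusted p 0.694 and the rank by p 230 of 13717 genes. Without knockout heart 3 the log2 fold change was 0.45 (edgeR unadjusted p = 0.0512, adjusted p = 1.00). An exact permutation test (two-sided) can give no p below 0.1 with 3 hearts in each group. It would give 0.1 to any gene whose groups do not overlap, C1qa included.

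**Figure D2:**
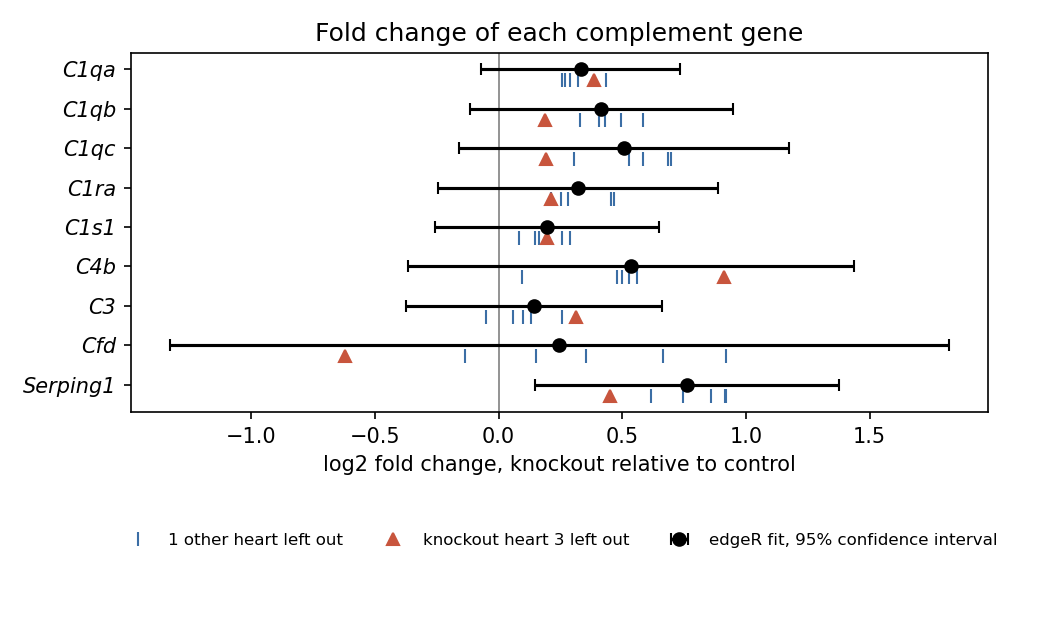
Log2 fold change of each complement gene (horizontal axis), with the edgeR estimate from 6 hearts and its 95% interval, ticks for fits without 1 of the other 5 hearts and triangles for the fit without knockout heart 3. Only the interval of Serping1 leaves out 0, and the triangle lies below the estimate for C1qb, C1qc, C1ra, Cfd and Serping1 and above it for C1qa, C4b and C3.

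Fibroblast markers were read beside Serping1, C1ra, C1s1 and C3. The 11 listed summed to 1504 to 1873 CPM in control and 1813 to 2410 CPM in knockout hearts, mostly from the gelsolin gene Gsn (948 and 1140 CPM as group means) and the decorin gene Dcn (510.4 and 590.1 CPM). Only knockout heart 3 (1489.7 CPM) lay above the control range of Gsn, whose log2 fold change was 0.27 with that heart and 0.026 without it. Of these 11 genes 10 had a log2 fold change above 0, with a median of 0.32, and none passed edgeR's test. Per 100 CPM of summed fibroblast markers, Serping1 came to 2.03, 1.93 and 2.34 CPM in control and 2.695, 2.56 and 3.54 CPM in knockout hearts. The groups did not overlap, as before this scaling, and the share of all genes apart after it was not computed. C1ra plus C1s1 came to 0.577 to 0.729 CPM in control and 0.595 to 0.779 CPM in knockout hearts, and C3 to 2.46 to 3.09 and 1.68 to 3.44 CPM. The part of fibroblast number in these values was not tested.

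The members differed in which heart was highest and which was lowest. Knockout heart 3 was the highest heart for 5 genes (C1qb, C1qc, C1ra, Cfd and Serping1) and the lowest for 2 (C4b and C3). Knockout heart 1 was the highest for the other 4 (C1qa, C1s1, C4b and C3). Control heart 2 was the lowest for 5 (C1qa, C1qb, C1qc, C1ra and Serping1). The least alike pair was C4b and Cfd, which differed by 0.96 on average on the centred log2 scale.

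**Figure D3:**
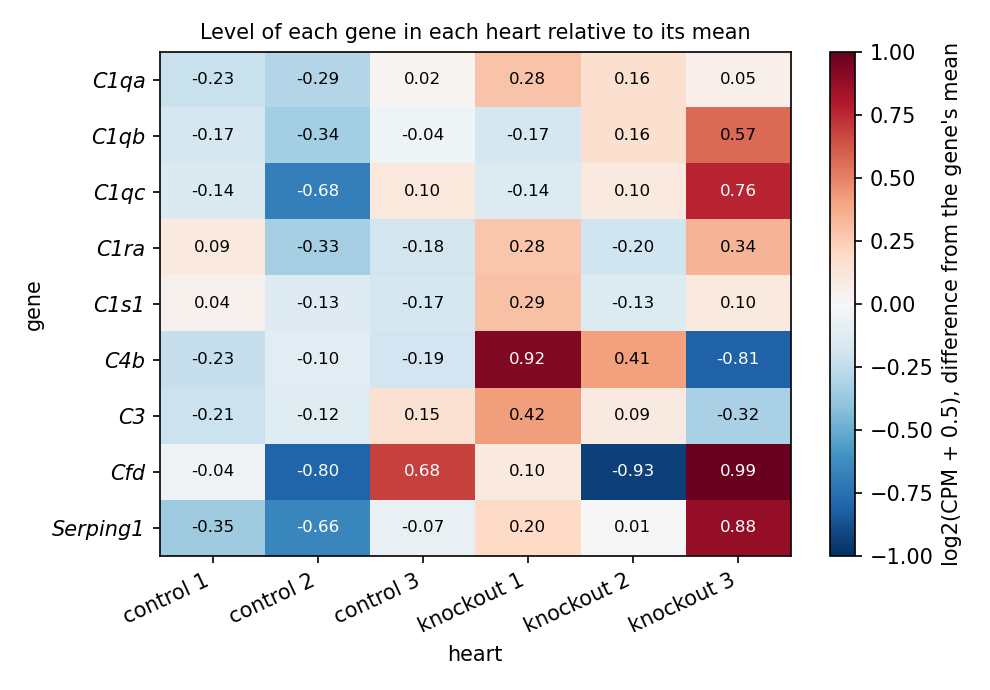
Difference of each complement gene (rows) from its own mean over the 6 hearts (columns) on the log2(CPM + 0.5) scale, red above and blue below. Knockout heart 3 reads 0.88 for Serping1 and 0.76 for C1qc but -0.81 for C4b and -0.32 for C3, and control heart 2 is below 0 in all 9 rows.

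The level of genes also moved with their length, in opposite directions in different hearts. Exon lengths from GENCODE M21 were matched to 96.1% of the tested genes. Genes of 1 to 2 kb had a median of 0.21 above their mean over hearts on the log2(CPM + 0.5) scale in knockout heart 3, and genes over 5 kb a median of -0.12. In control heart 2, the lowest heart for 5 of the 9 genes, the same medians were -0.15 and 0.091, and in knockout heart 1 they were -0.070 and 0.063. C3 (5143 exon bases) and C4b (5695) are the longest of the 9 genes, and at -0.32 and -0.81 in knockout heart 3 they lay below the median of their class. C1qc (1931) at 0.76 and Serping1 (2325) at 0.88 lay above the medians of theirs, and C1qa (1040) at 0.05 below. With the length effect of each library as an offset, an alternative chosen after the data were seen, the log2 fold change was 0.67 for Serping1, 0.39 for C1qc, 0.54 for C4b and 0.14 for C3.

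**Figure D4:**
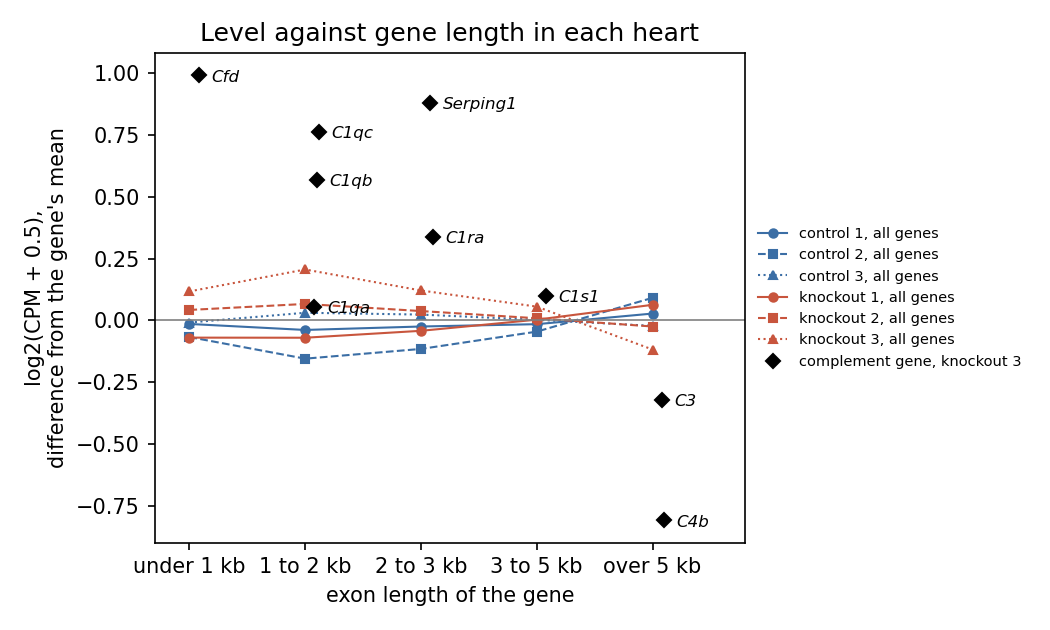
Median difference from the mean over hearts on the log2(CPM + 0.5) scale for all tested genes by exon length class (lines, 1 per heart), and the value of each complement gene in knockout heart 3 (diamonds). The line of knockout heart 3 falls from 0.21 at 1 to 2 kb to -0.12 over 5 kb, and the diamonds spread more widely, from 0.99 for Cfd to -0.81 for C4b.

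Per kilobase of exon, C1qa was the most abundant of the 9 transcripts in control hearts, at 32.0 ± 3.80 CPM per kb (SD, n = 3). Serping1 followed at 15.6 ± 3.16, C1qc at 11.0 ± 2.95, C3 at 9.48 ± 1.27 and C1qb at 8.19 ± 0.889 CPM per kb. Each of these 4 overlapped its neighbour in the order. A gap set off C1s1 at 2.28 ± 0.193 CPM per kb, whose hearts all lay above those of C1ra at 1.45 ± 0.247. C1ra, Cfd at 1.36 ± 0.942 and C4b at 1.23 ± 0.0613 CPM per kb overlapped. Cfd also overlapped C1s1, reaching 2.37 CPM per kb where C1s1 ran from 2.13 to 2.50. The cDNA was primed at the poly(A) tail, so scaling by length may overcorrect the long C3 and C4b if reads gather near the 3′ end, which was not tested.

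Of the 45 other complement genes on the lists 19 were tested, 14 of these had a log2 fold change above 0 (median 0.30) and none passed edgeR's test. None of the 7 terminal pathway genes that build the membrane attack complex passed the filter, and Hc (which encodes C5), C8a, C8b and C9 had no counts in any library. C2, the partner of C4 in the classical convertase, and Cfb, its counterpart in the alternative pathway, did not pass the filter either, at 0.442 and 0.465 CPM or less as group means. The mannose-binding lectins Mbl1 and Mbl2 had no counts, while the collectins Colec12 (7.39 and 8.05 CPM, control and knockout means) and Colec11 (7.14 and 7.41 CPM) were measured. Masp1, a lectin pathway protease chosen here after its values were seen, was at 2.66, 3.68 and 3.70 CPM in control and 3.12, 6.58 and 8.26 CPM in knockout hearts, with knockout heart 1 inside the control range. Its log2 fold change was 0.84 (edgeR adjusted p = 0.694), and 0.52 without knockout heart 3.

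Of 3 tested soluble regulators beside Serping1, 2 had a log2 fold change above 0. Clusterin (Clu), which binds the terminal complex, was at 104, 108 and 175 CPM in control and 105, 190.2 and 248 CPM in knockout hearts. Its fitted change was 0.49 on the log2 scale, and 0.19 without knockout heart 3. Of the membrane regulators, Cd59a, which blocks the membrane attack complex, was at 68.5 and 86.1 CPM and Cr1l (Crry), which protects cells from C3 convertases, at 30.4 and 28.03 CPM. Of 5 tested membrane regulators 3 had a log2 fold change above 0. Properdin (Cfp), which stabilises the alternative convertase, was the only tested complement gene with all knockout hearts below all control hearts, as in 5.84% of all genes: it was at 5.24, 6.17 and 4.36 CPM in control and 4.201, 3.25 and 3.05 CPM among knockouts (log2 fold change -0.58, SE 0.24, edgeR adjusted p = 0.694). Its unadjusted p was under 0.05, as for 2.45% of all genes in that direction. Among receptors, C5ar1, the C5a receptor, was at 6.57 and 9.22 CPM, and Cd93, once described as a C1q receptor and abundant in endothelium, at 99.97 and 93.06 CPM.

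Markers of other cell types were read in the same way. Hepatocyte and plasma protein genes summed to at most 2.95 CPM in any heart, with Alb at 0 in 5 of 6 hearts. Of the epicardial and mesothelial list only Wt1 was tested (4.12 and 3.69 CPM), and Msln was at 0 in every heart but knockout heart 3. The acute-phase genes Saa1 and Saa2 had no counts, and Cp and Osmr, the 2 tested, had log2 fold changes of 0.18 and -0.30. Of 10 interferon-stimulated genes 6 had a log2 fold change above 0 with a median of 0.04. Endothelial markers had a median of 0.02, with Cdh5 at 130.9 and 133.7 CPM and Kdr at 73.7 and 73.8 CPM. Without knockout heart 1 the log2 fold change was -0.35 for Cdh5 and -0.58 for Kdr. Without knockout heart 3 it was 0.21 for Cdh5 and 0.29 for Kdr. In Pecam1 every knockout heart lay below every control heart, as in 5.84% of all genes. Its means were 51.1 and 39.5 CPM (log2 fold change -0.37, edgeR adjusted p = 0.694), and Tie1 had a log2 fold change of -0.31. The other 4 of the 6 endothelial markers had one above 0, with Tek and Cldn5 at 0.07 each. The neutrophil genes S100a8 (1.26 and 3.44 CPM) and S100a9 (2.17 and 4.94 CPM) had every knockout heart above every control heart. That held for 6.28% of all genes, and the edgeR adjusted p was 0.694 for S100a8 and S100a9 alike. The rest of the 5 neutrophil genes listed did not pass the filter. Csf3r was at 0.381 and 0.384 CPM, Ly6g at 0.0154 and 0.0252 CPM and Retnlg at 0.129 and 0.304 CPM, with overlapping groups. The part of these cells in the complement values was not tested.

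As a description of profile, the genes nearest to each member were sought among the 13708 other tested genes, by the mean absolute difference of centred log2(CPM + 0.5) over the 6 hearts. With so many genes and 6 hearts that share library depth and composition, near matches are common. The mean of the C1q chains was nearest to Rpl14 (0.02), Psme3 (0.03) and Tomm22 (0.03). Serping1 was nearest to Cnot11 (0.06), Fbln5 (0.07) and Ppp1cb (0.07), and C4b to Lox (0.11), Gm16332 (0.12) and Lgals3 (0.16). C1ra was nearest to Snx33 and Fndc3b, C1s1 to Fn3krp, Myl12b and Rap1b, C3 to Naalad2, Ubox5 and Rasgef1b, and Cfd to Gm26982, AI467606 and Mthfs.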

How the data were processed

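Heart RNA in TRIzol was reverse transcribed from anchored oligo(dT), tagmented and amplified, per the labels' protocols. The submitters' processing notes name edgeR 4.0.16, Subread 2.1.1 with featureCounts, STAR 2.7.11, SAMtools 1.22.1 and build mm39, without roles. Annotation, strand setting and multi-mapping are not given in the sources used here. Deposited by the authors were estimated counts, some with fractions of a read, and CPM values, which equal each count over its column's sum with no further scaling.

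Counts were rounded, scaled by TMM and tested by quasi-likelihood in edgeR 4.0.16 under R 4.3.3. A gene was tested if 3 or more of the 6 libraries had a CPM of 1 or more. The script was tested on simulated data. Printed CPM are TMM-normalised unless called deposited. Alternatives used DESeq2 1.42.0, limma 3.58.1 (log2 of CPM plus 0.5 or 2), other filters and scaling, and fits without each heart. The submitters' labels name separate hearts per group. An edgeR p-value sets the group difference against the spread between these hearts, estimated with information from all tested genes. Counts as low as 5 limit precision.

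The 9 genes, gene lists and tests were chosen with earlier results of these data known. Named by rule were all members, the 2 most abundant tested genes of each other list, any gene past the threshold and the 3 nearest in profile. Other genes were named outside this rule, so their choice was not fixed in advance. They include Masp1, Pecam1, Tie1, Tek, Cldn5, Ryr2, Tnni3 and Actc1. A few genes that this rule names are not reported here. Exon lengths and transcripts came from GENCODE M21 and promoters from RefSeq, both GRCm38, matched by gene identifier or symbol.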

Additional observations from a re-analysis of the deposited data

How the results depend on the processing

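Over 15 alternative settings, each of the 9 genes stayed short of the threshold in all, and of 135 gene values 132 lay above 0. The 3 below 0 were Cfd without control heart 2 (-0.13) or knockout heart 3 (-0.62) and C3 without knockout heart 1 (-0.052). As each heart was left out, Cfd ranged from -0.62 to 0.92 and C3 from -0.052 to 0.32. The number of genes called among all tested was 0 with all hearts in edgeR (705 at an unadjusted p under 0.05), 15 in DESeq2, 133 without a filter on low values, and 0 to 3 as each heart was left out, the 3 without knockout heart 3. With limma-trend on deposited CPM, which changes the test, the pseudocount and the scaling together, the median log2 fold change of all genes lay higher by 0.13 (plus 0.5) or 0.11 (plus 2). Correlations over genes of the deviations from the group means did not settle whether heart numbers pair the libraries. They were -0.11, 0.45 and 0.58 for numbers 1, 2 and 3. Control heart 3 correlated best with knockout heart 3, but control heart 1 did so too (0.29), and control heart 2 with knockout heart 1 (0.57). With heart number as a replicate block 5 genes were called and 1807 had an edgeR unadjusted p under 0.05. Serping1 had an edgeR adjusted p of 0.255 in that fit. Depth limits Cfd most, which had 127 counts over all libraries.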
